A study of Mus musculus with 5 samples.

Results

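Matricellular proteins are secreted glycoproteins of the extracellular matrix that tune how cells hold on to it and read growth factors, more than they bear load. The genes described here are 9 such proteins and adhesive matrix proteins, chosen by symbol from the 14161 genes of the series. They are the thrombospondins Thbs1 and Thbs2, the collagen binders Sparc, Postn and Aebp1, the CCN proteins Ctgf and Cyr61, tenascin-C (Tnc) and fibronectin (Fn1). The RNA was described as that of mesenchymal stem cells grown out of mouse femur marrow. Such cells attach to plastic and can become bone, cartilage or fat cells. The 5 libraries were 3 of Bmal1-knockout and 2 of wild type cells, all from C57BL/6 mice 6 to 8 weeks old, grown in α-MEM with 12% FBS and used at passages 1 to 3. BMAL1, the product of Arntl, is the partner of CLOCK in the circadian clock of each cell. How and in which cells the gene was deleted, and whether the libraries of a group came from separate mice or cultures, is stated neither in the labels nor in the tables, so p-values measure only the spread between these libraries, which may be technical.

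Many of these proteins work through cell surface receptors and through collagen. Thrombospondin-1 and thrombospondin-2 bind CD47, CD36 and the scavenger receptor LRP1 and limit blood vessel growth. SPARC, periostin and the protein made by Aebp1 bind fibrillar collagen, CCN proteins bind integrins, and fibronectin is the adhesive fibril on which cells pull through the integrin α5β1. In marrow stroma and bone they are made by fibroblasts and osteoblasts, while fibronectin and thrombospondin-1 are also made by macrophages.

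Of the 9 genes, 8 were higher in the knockout libraries and 1, Thbs1, was not past the test. The rises ran from 1.60-fold (Ctgf) to 3.11-fold (Aebp1), and 4 of the 8 exceeded 2-fold: Aebp1, Sparc, Thbs2 and Cyr61. Thbs2, the closest relative of Thbs1 among the 9, rose 2.75-fold while the Thbs1 fold was 1.00. All 9 were listed and tested in every library, and no gene was lost to the filter on low counts. Of all 3710 genes tested, 8.19% passed as higher and 8.14% as lower, taking an adjusted p under 0.05 (edgeR's quasi-likelihood test with Benjamini-Hochberg adjustment). The median log2 fold change of the 9 was 0.91, beside 0.01 over all tested genes. In 8 of the 9 the lowest knockout library lay above the highest wild type library, a separation that 21.2% of all tested genes showed in that direction and 21.6% in the other. The counts describe the 9 genes and test nothing about them as a group.

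The libraries were shallow, with 211623 to 281990 expected counts each, and the 9 genes took 0.737% to 0.879% of the counts in the knockout and 0.394% to 0.412% in the wild type libraries. Levels below are CPM, counts per 1e6 counts on the scaled total of the tested genes, on which 3 counts came to 12.1 to 15.9 CPM. Arntl, the targeted gene, had 4, 1 and 2 counts in knockout 1, 2 and 3 and 5 and 0 in wild type 1 and 2, and so does not check the genotype labels. The libraries of a group differed from each other by more than sampling noise, with chi-square values of 1.34 to 1.52 per degree of freedom, and libraries of different groups by 3.83 to 4.15. Macrophage genes were abundant in these cultures. The 20 macrophage markers, all of them tested, summed to 11580 to 12871 CPM in the knockout and 18692 to 19342 in the wild type libraries. The 20 stromal markers, of which 12 were tested, summed to 5248 to 5621 CPM in the knockout and 2668 to 2993 in the wild type libraries. None was at 0 in every library, and the sum was below the macrophage sum in all 5 libraries. The lysozyme gene Lyz2 alone gave a mean of 6789 CPM of the macrophage sum in the knockout and 10767 in the wild type libraries. Without it, the macrophage sum in the knockout libraries would lie close to the stromal sum. In the wild type libraries it would still lie well above the stromal sum. In RNA from a mixed culture, fewer cells of a type and less RNA per cell cannot be told apart.

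Promoter sequence was read for the members that rose, to print what lies before their starts. The RefSeq table (GRCm38.p6, the assembly called mm10) matched 6 of the 9 genes with 8 windows, and Thbs1, Ctgf and Fn1 had no entry. Each stretch below is the 250 bases before a start, 5′ to 3′ on the gene's own strand, with capitals for motifs found on either strand. The motifs are the TATA box TATAAA, the TEAD factor site CATTCC and the CCAAT box. The stretches are those of Thbs2, the thrombospondin that rose (chr17:14694263-14694512, minus strand), Sparc, the most abundant of the 9 (chr11:55420081-55420330, minus strand), Postn at its second start (chr3:54360857-54361106, plus strand) and Cyr61, a textbook TEAD target (chr3:145649986-145650235, minus strand).
Thbs2: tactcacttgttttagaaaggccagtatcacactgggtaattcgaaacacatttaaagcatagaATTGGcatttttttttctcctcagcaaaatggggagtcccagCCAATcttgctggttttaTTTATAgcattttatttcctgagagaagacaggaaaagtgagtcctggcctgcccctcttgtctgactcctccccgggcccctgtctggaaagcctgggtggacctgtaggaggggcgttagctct
Sparc: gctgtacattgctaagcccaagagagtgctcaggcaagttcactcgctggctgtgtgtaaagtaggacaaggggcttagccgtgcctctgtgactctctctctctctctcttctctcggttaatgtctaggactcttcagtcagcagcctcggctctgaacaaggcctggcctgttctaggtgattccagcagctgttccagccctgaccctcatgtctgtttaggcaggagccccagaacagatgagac
Postn: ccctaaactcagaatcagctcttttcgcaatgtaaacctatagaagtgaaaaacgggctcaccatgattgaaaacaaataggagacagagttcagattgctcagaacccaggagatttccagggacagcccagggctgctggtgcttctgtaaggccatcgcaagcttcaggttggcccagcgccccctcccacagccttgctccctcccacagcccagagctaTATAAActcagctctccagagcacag
Cyr61: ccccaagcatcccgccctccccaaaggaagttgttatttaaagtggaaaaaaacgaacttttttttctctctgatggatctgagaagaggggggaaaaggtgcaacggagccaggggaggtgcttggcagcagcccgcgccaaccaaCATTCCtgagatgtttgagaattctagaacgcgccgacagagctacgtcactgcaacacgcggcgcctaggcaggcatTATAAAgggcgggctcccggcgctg
The TATA box letters began 25 bases before the start in Cyr61 and 26 in Postn, and in Thbs2 they lay on the opposite strand. They were in 5 of the 8 windows, beside 12.37% of all 32851 windows of that length, but 2 of the 5 are overlapping windows of Tnc. The TEAD letters were in 1 of the 8, that of Cyr61, 103 bases before its start, beside 12.64% of all windows. The CCAAT letters were in 1 of the 8, that of Thbs2, beside 33.85%. The E-box CACGTG, which BMAL1 and CLOCK bind, was in none of the 8 (6.02% of all windows), nor were the E-box-like letters CACGTT (3.85%). A match is a description of these letters and not a binding site, and a missing match says only that the letters are not in this stretch.

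Thbs1 encodes thrombospondin-1, the form stored in platelets and made quickly by many cells on stimulation (Entrez gene 21825, chromosome 2, 118111876 to 118127133). Its counts were 279, 253 and 263 in knockout 1, 2 and 3 and 244 and 234 in wild type 1 and 2. Its levels were 1340, 1203 and 1064 CPM against 1146 and 1244. The wild type libraries lay inside the range of the knockout libraries. The mean was 1202 ± 138 CPM (SD, n = 3) against 1195 ± 68.8 (n = 2), so that the log2 fold change was 0.01 (SE 0.12, edgeR adjusted p = 0.980). The ratio of the summed counts, scaled for library size, was 1.00. Its exact 95% Poisson interval for counting error alone ran from 0.893 to 1.12. The sign of its fold change turned between settings, which ran from -0.070 to 0.091.

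Thbs2 encodes thrombospondin-2, a form made by fibroblasts that restrains angiogenesis and without which collagen fibrils assemble poorly (Entrez gene 21826, chromosome 17, 14665500 to 14694262). Its counts were 226, 179 and 231 for knockout against 71 and 68 for wild type. Its levels were 1086, 851 and 935 CPM against 334 and 361. Every knockout library held more than 2 times the level of either wild type library. The mean rose from 347 ± 19.7 CPM (SD, n = 2) to 957 ± 119 (n = 3), or by 1.46 on the log2 scale (SE 0.16, adjusted p = 5.2e-18). The ratio of summed counts was 2.76 with an exact interval of 2.29 to 3.34, which does not reach the interval of Thbs1.

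**Figure D1:**
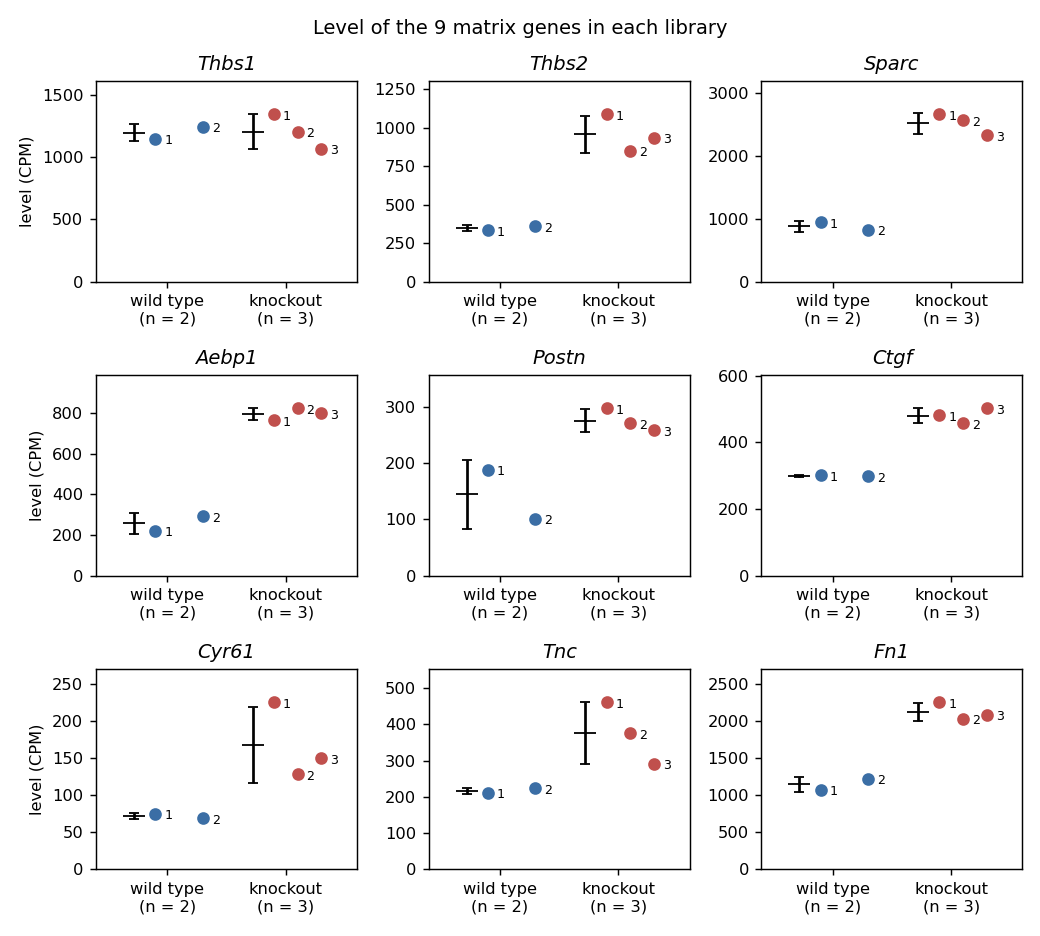
Level in CPM (vertical axis, from 0) of each of the 9 genes in the 2 wild type and 3 knockout libraries. Points are libraries with their replicate number, and the bar beside them is the mean with its SD. Thbs1 is the gene whose groups overlap, with wild type at 1146 and 1244 CPM between the knockout values of 1064 and 1340.

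The contrast of the paralogs was tested within each library, where library size cancels. The ratio of Thbs1 to Thbs2 FPKM, a level per gene length, was 1.41, 1.64 and 1.23 for knockout and 3.64 and 3.67 for wild type. The wild type libraries nearly coincided, and the highest knockout ratio was less than the lower wild type ratio. For Thbs2, with 71 and 68 counts, the exact interval of wild type 1 over wild type 2 was 0.652 to 1.31. The near agreement of the wild type ratios, with the SD of 0.01 below, is thus closer than these counts can resolve. The mean log2 ratio was 0.50 ± 0.21 (SD, n = 3) against 1.87 ± 0.01 (n = 2), a difference of -1.37. An exact two-sided permutation test gave p = 0.1, the smallest that the 10 arrangements of 3 against 2 libraries allow. In counts, Thbs1 made up 55.2% of the reads of the pair in knockout 1 (95% Clopper-Pearson interval 50.8% to 59.6%). Its share was 58.6% in knockout 2 (53.8% to 63.3%) and 53.2% in knockout 3 (48.7% to 57.7%). It made up 77.5% in wild type 1 (72.4% to 82.0%) and 77.5% in wild type 2 (72.3% to 82.1%). The intervals of the groups did not overlap. The difference was -1.26 to -1.47 with each library left out and -1.45 on counts in place of FPKM.

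FPKM and counts of Thbs1 differed slightly because its deposited length did. The gene joins 2 RefSeq and 4 further assembled transcripts, and its length was 5192, 5130 and 5506 bases for knockout and 5606 and 5568 for wild type, a range of 9.28%. Thbs2 holds 1 transcript of 5922 bases, and no other member's length varied by more than 2.12%. The Thbs1 levels per length were 190, 164 and 133 FPKM for knockout and 147 and 163 for wild type, which overlap as the CPM do. A stretch of 208 exon bases of Thbs1 lies opposite an exon of Gm29233, and Thbs2 has no exon opposite another gene. No source used here says whether counting used strand, so reads of a gene and of its opposite partner cannot be told apart, here and in the pairs named below.

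Thbs1 was set against the other genes in the same way. Its FPKM relative to each of the 8 other genes was lower in all 3 knockout libraries than in the 2 wild type libraries, in all 8 ratios. The shift ran from -0.59 on the log2 scale relative to Ctgf to -1.55 relative to Aebp1. Relative to Fn1, Thbs1 stood at 0.940, 0.950 and 0.757 for knockout and 1.57 and 1.48 for wild type. Each of the 8 exact permutation tests gave p = 0.1, the smallest possible, and 0.1 after adjustment over the 8. The 8 ratios share their numerator and are not independent.

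**Figure D2:**
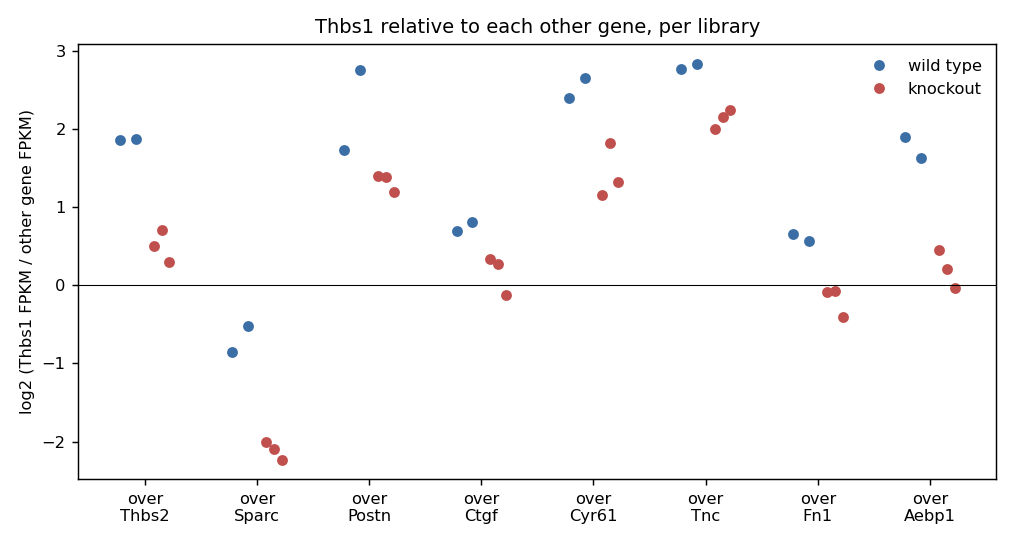
log2 of the Thbs1 FPKM over the FPKM of each other gene (vertical axis), per library, with wild type in blue (n = 2) and knockout in red (n = 3). In each of the 8 ratios the red points lie below the blue ones, by -1.37 on average for Thbs2.

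Sparc encodes osteonectin, an abundant calcium-binding and collagen-binding protein of bone (Entrez gene 20692, chromosome 11, 55394159 to 55420080). Its counts were 554, 540 and 576 for knockout against 202 and 155 for wild type. Its levels were 2662, 2567 and 2331 CPM against 949 and 824. All knockout libraries were far above both wild type libraries, and wild type 2 was the lowest of the 5. The log2 fold change was 1.50 (SE 0.12, adjusted p = 2.4e-31), the smallest adjusted p of the 9.

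Aebp1 encodes the aortic carboxypeptidase-like protein, a collagen-binding protein that strengthens connective tissue (Entrez gene 11568, chromosome 11, 5861866 to 5872248). Its counts were 159, 173 and 197 for knockout against 47 and 55 for wild type. Its levels were 764, 822 and 797 CPM against 221 and 292. The knockout libraries were the most alike for this gene, at 794 ± 29.3 CPM (SD, n = 3). That SD was 3.69% of the mean, below the 7.53% of counting error alone. Wild type 1 held 0.755 times the level of wild type 2. The log2 fold change was 1.64 (SE 0.17, adjusted p = 6.7e-19), the largest of the 9.

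Postn encodes periostin, which helps collagen to be cross-linked in the periosteum and in repair tissue (Entrez gene 50706, chromosome 3, 54359267 to 54391041). Its counts were 62, 57 and 64 for knockout against 40 and 19 for wild type. Its levels were 298, 271 and 259 CPM against 188 and 101. The groups did not overlap, but the 2 wild type libraries differed 1.86-fold, with an exact interval of 1.05 to 3.40 for counting error. The mean rose from 144 ± 61.5 (SD, n = 2) to 276 ± 19.9 CPM (n = 3), or by 0.91 on the log2 scale (SE 0.25, adjusted p = 0.00412). Wild type 2 decided the size: without it the log2 fold change was 0.54 (adjusted p = 0.357) and the call was lost, and without wild type 1 it was 1.42. Limma on log2(FPKM + 1) gave 0.95 and did not pass it (adjusted p = 0.0700).

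The CCN genes encode small cysteine-rich proteins that cells release on mechanical load and TGF-beta. Ctgf, named Ccn2 in RefSeq (Entrez gene 14219, chromosome 10, 24595442 to 24598683), had counts of 100, 96 and 124 for knockout against 64 and 56 for wild type. Its levels were 480, 456 and 502 CPM against 301 and 298, tight in either group and separate. The knockout SD was 4.73% of the mean, below the 9.68% of counting error alone, so this closeness is no measure of precision. The log2 fold change was 0.68 (SE 0.18, adjusted p = 0.00279), the smallest rise of the 8. With 1 wild type library the call was lost (adjusted p = 0.0963 without wild type 1 and 0.0838 without wild type 2) while the fold change stayed at 0.67. Of its exon bases, 665 lie opposite Gm15270.

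Cyr61, named Ccn1 in RefSeq (Entrez gene 16007, chromosome 3, 145646971 to 145649985), had the lowest counts of the 9: 47, 27 and 37 for knockout against 16 and 13 for wild type. Its levels were 226, 128 and 150 CPM against 75.2 and 69.1. Knockout 1 stood highest, 1.76 times knockout 2 (exact interval 1.07 to 2.94), and all 3 were above both wild type libraries. The log2 fold change was 1.20 (SE 0.33, adjusted p = 0.00323). The call was lost without knockout 1 (0.96, adjusted p = 0.0553), without wild type 1 (1.25, adjusted p = 0.0630) and without wild type 2 (1.14, adjusted p = 0.0750), and also in limma on log2(FPKM + 0.1) (1.14, adjusted p = 0.0512). The Cyr61 to Ctgf ratio of FPKM was 0.567, 0.339 and 0.365 for knockout and 0.306 and 0.280 for wild type, and an exact permutation test of its log2 difference of 0.49 gave p = 0.2.

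Tnc encodes tenascin-C, a many-armed protein of developing and healing tissue that loosens the grip of cells on fibronectin (Entrez gene 21923, chromosome 4, 63959785 to 64047015). Its counts were 96, 79 and 72 for knockout against 45 and 42 for wild type. Its levels were 461, 376 and 291 CPM against 211 and 223. The knockout libraries spread 1.58-fold, from knockout 1 to knockout 3 (exact interval 1.15 to 2.18), but the lowest was still above both wild type libraries. The log2 fold change was 0.78 (SE 0.21, adjusted p = 0.00294). The call was lost without wild type 1 (0.72, adjusted p = 0.117) or wild type 2 (0.81, adjusted p = 0.0563), and limma on log2(FPKM + 1) gave 0.70 (adjusted p = 0.181). Of its exon bases, 176 lie opposite 8030451A03Rik.

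Fn1 encodes fibronectin (Entrez gene 14268, chromosome 1, 71585473 to 71653280). Its counts were 469, 426 and 515 for knockout against 229 for each wild type library. Its levels were 2253, 2025 and 2084 CPM against 1076 and 1217. The groups were separate, and the lowest knockout library stood well above wild type 2, the higher of its group. The log2 fold change was 0.89 (SE 0.12, adjusted p = 8.8e-12), and this call held with each library left out. Of its exon bases, 292 lie opposite Apol7d.

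**Figure D3:**
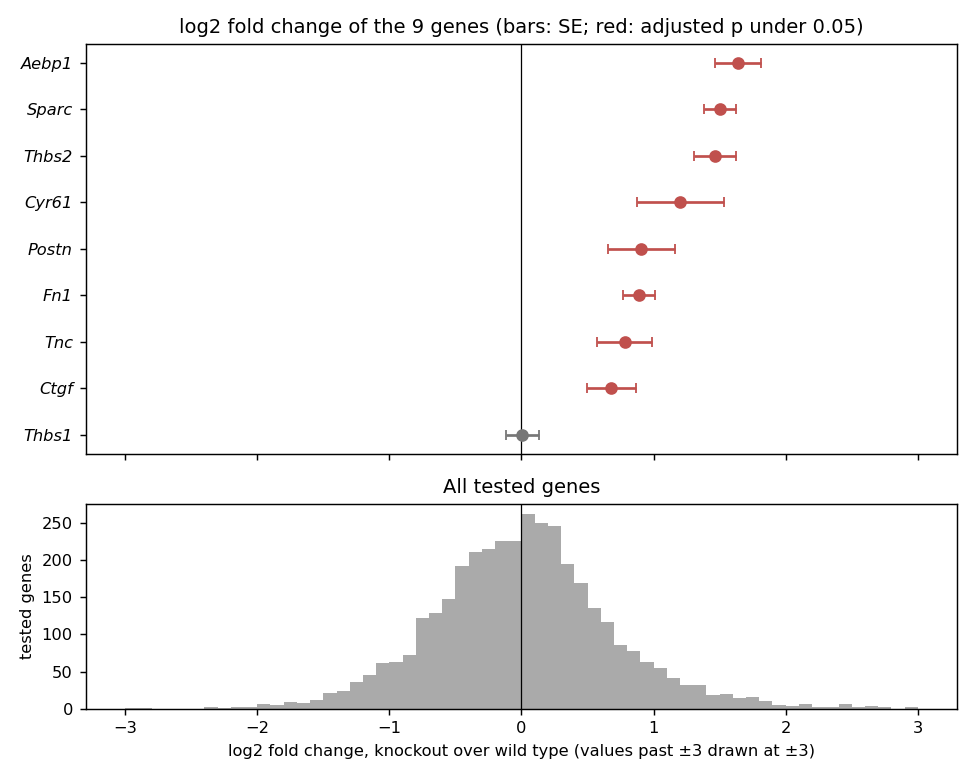
Above, log2 fold change of each of the 9 genes, knockout over wild type (horizontal axis), with SE as bars and red for an adjusted p under 0.05. Below, the same quantity for all 3710 tested genes as a histogram, centred near 0, while 8 of the 9 lie between 0.68 and 1.64 and Thbs1 at 0.01.

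The order of the levels per length differed between the genotypes at Thbs1. In the wild type libraries Sparc was first (250 ± 21.8 FPKM, SD, n = 2), followed by Thbs1 (155 ± 11.6), Fn1 (102 ± 11.6) and Ctgf (91.7 ± 1.48), with no overlap of ranges between these neighbours. Aebp1 (46.0 ± 9.62), Thbs2 (42.4 ± 2.93), Postn (34.1 ± 14.1) and Cyr61 (26.9 ± 1.27) came after them, each overlapping its neighbour, and Tnc was last and separate (22.2 ± 0.912). In the knockout libraries Sparc stood alone at 694 ± 68.5 FPKM (SD, n = 3). Fn1 (183 ± 16.2), Thbs1 (162 ± 28.5), Ctgf (144 ± 7.29) and Aebp1 (139 ± 3.27) came next, and each of these overlapped its neighbour. Thbs2 (114 ± 17.9) lay below Aebp1 without overlap, but its highest library (134 FPKM) was above the lowest of Thbs1 (133 FPKM). It lay above Postn (64.2 ± 7.04), Cyr61 (61.6 ± 20.9) and Tnc (37.4 ± 9.71), which overlapped in turn. Even Tnc, the lowest, exceeded 81.8% of the genes listed in a wild type library and 88.8% of those in a knockout library, on average over the libraries of the group.

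The genes whose levels followed Thbs1 and Thbs2 most closely over the 5 libraries were different ones. For Thbs2 the highest Pearson correlations of log2(CPM + 1), among 1488 genes with a mean of at least 100 CPM, were those of Col5a2, a fibrillar collagen chain, Acta2, smooth muscle actin, Rspo2, a WNT amplifier, Jmjd8 and Cxcl12, at 0.997 to 0.999. For Thbs1 they included those of Igf2r, the mannose 6-phosphate receptor, Rbpj, the transcription factor of Notch signalling, Cd93, a surface glycoprotein of endothelial and myeloid cells, and Ddx5, an RNA helicase, at 0.955 to 0.983. A correlation of at least 0.9 was reached by 177 genes for Thbs2 and by 8 for Thbs1. The 5 points share the genotype split and the depth of their libraries, so these values are a description.

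Other matricellular and adhesive glycoproteins followed in part. The list of 37 had 31 genes in the tables and 20 that could be tested. Of those 20, 9 passed as higher, 1 as lower and 10 in neither direction, with a median log2 fold change of 0.69. Igfbp7, a basement membrane protein that binds growth factors, rose by 1.61 (SE 0.24), from 122 ± 14.1 CPM (SD, n = 2) to 372 ± 77.3 (n = 3). Fbln2, a fibulin, rose by 1.76 (1.11 and not past the test without wild type 2), and Hspg2, the proteoglycan perlecan, by 1.56 (0.85 and not past it without wild type 1). Each also missed the test in limma on log2(FPKM + 0.1). Emilin2, an elastin-associated glycoprotein, fell by 1.04 on the log2 scale, from 530 ± 80.8 CPM (n = 2) to 261 ± 51.9 (n = 3). Without wild type 1, 2 genes of the list passed as higher, and without wild type 2, 4 did. DESeq2 passed 3. The other thrombospondin genes were too low to test, with 9 counts of Thbs3 in the knockout and 2 in the wild type libraries, 0 and 1 of Comp, which encodes thrombospondin-5, and Thbs4 not listed.

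The receptors of these proteins split. The list of 26 had 25 genes in the tables and 17 that could be tested, of which 3 passed as higher, 4 as lower and 10 in neither direction, with a median log2 fold change of -0.01. Those that rose were Sdc2, a heparan sulfate syndecan (0.98), Ddr2, a collagen receptor tyrosine kinase (1.01), and Calr, calreticulin (0.38). Those that fell were Stab1, a scavenger receptor that takes up SPARC (-0.74), Cd36, the thrombospondin receptor (-0.86), Itgam (-0.55) and Itgb2 (-0.80). Stab1, Cd36 and Itgb2 are made by macrophages, and Itgam is itself in the list of macrophage markers below. Without wild type 2, edgeR passed 0 of 18 tested (2 higher and 3 lower at an unadjusted p under 0.05), and without wild type 1 it passed 0 as higher and 2 as lower (3 and 4 unadjusted). Without knockout 2 it passed 3 and 2, and without knockout 3, 1 and 3. On all libraries DESeq2 passed 0 as higher and 1 as lower (4 and 4 unadjusted), and limma on log2(FPKM + 1) or log2(FPKM + 0.1) passed 0 of the 17 in either direction (2 and 4 unadjusted). The share of all tested genes at an unadjusted p under 0.05 is not given. The unadjusted counts of this and the later lists thus have no background beside them. Itgb2 falls outside the rule for named genes and completes the count of 4 that fell. Sdc2 did not pass when either wild type library was dropped (0.99 and 0.94), and Ddr2 without any library but knockout 2 (0.70 to 1.33). Calr missed the test in 11 of the 14 settings, with all 5 libraries at adjusted p = 0.0519 with RLE scaling, 0.0560 with upper quartile scaling, 0.0535 with voom and 0.123 without the filter, and when knockout 3 (0.35), wild type 1 (0.42) or wild type 2 (0.33) was dropped. Stab1 lost it without wild type 2 (-0.68), Cd36 without knockout 2 (-0.83) or wild type 2 (-0.38), and Itgam without knockout 2 (-0.40), wild type 1 (-0.56) or wild type 2 (-0.57). Itgb2 lost it without knockout 3 (-0.65), wild type 1 (-0.82) or wild type 2 (-0.80).

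The binding partners and processing enzymes were mostly higher. The list of 25 had 23 genes in the tables and 20 that could be tested, of which 11 passed as higher, 2 as lower and 7 in neither direction, with a median log2 fold change of 1.06. The smallest adjusted p were those of the fibrillar collagens Col3a1 (1.38), Col1a1 (1.63) and Col1a2 (1.51), rises of the size seen for Sparc and Thbs2. Tgm2, the transglutaminase that cross-links fibronectin, fell by 1.10 on the log2 scale and did not pass without wild type 1 (-0.99). Mmp9, a gelatinase of leukocytes and osteoclasts, fell by 0.66 and did not pass without wild type 2 (-0.58), nor in limma on log2(FPKM + 1).

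Ctgf and Cyr61 are known targets of the YAP and TAZ coactivators and, with Thbs1, of immediate-early induction, so these lists are given beside them. The list of 25 further genes of the YAP and TAZ pathway holds mostly targets, but also components such as Yap1, Wwtr1 and the DNA-binding partner Tead1. All 25 were in the tables and 8 could be tested. Of the 8, 2 passed as higher and 0 as lower in edgeR (2 and 0 at an unadjusted p under 0.05), DESeq2 passed 1 and 0, limma on log2(FPKM + 1) 0 and 0 (2 and 1 unadjusted), and the median was 0.19. Ccdc80, a matrix protein, rose by 1.16 and did not pass without wild type 1 (1.01), as in 3 of 14 settings. Amotl2, an angiomotin of the pathway, rose by 1.47 and did not pass without wild type 2 (0.79), as in 5 of 14. All 24 immediate-early genes were in the tables and 9 could be tested. Of the 9, 3 passed as lower and 0 as higher in edgeR (4 and 0 at an unadjusted p under 0.05), DESeq2 passed 1 and 0, and the median was -0.73. Without wild type 2, 1 passed as lower, and without knockout 1 or knockout 2, 2 did. Fos had counts of 5, 9 and 6 for knockout against 25 and 28 for wild type and fell by 2.12 on the log2 scale (SE 0.40, adjusted p = 3.9e-06). Junb fell by 1.12 and did not pass without wild type 2 (-0.89), as in 4 of 14 settings. Egr1 fell by 1.09 and did not pass without knockout 1 (-1.01), knockout 2 (-0.95) or wild type 2 (-0.80), as in 7 of 14.

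**Figure D4:**
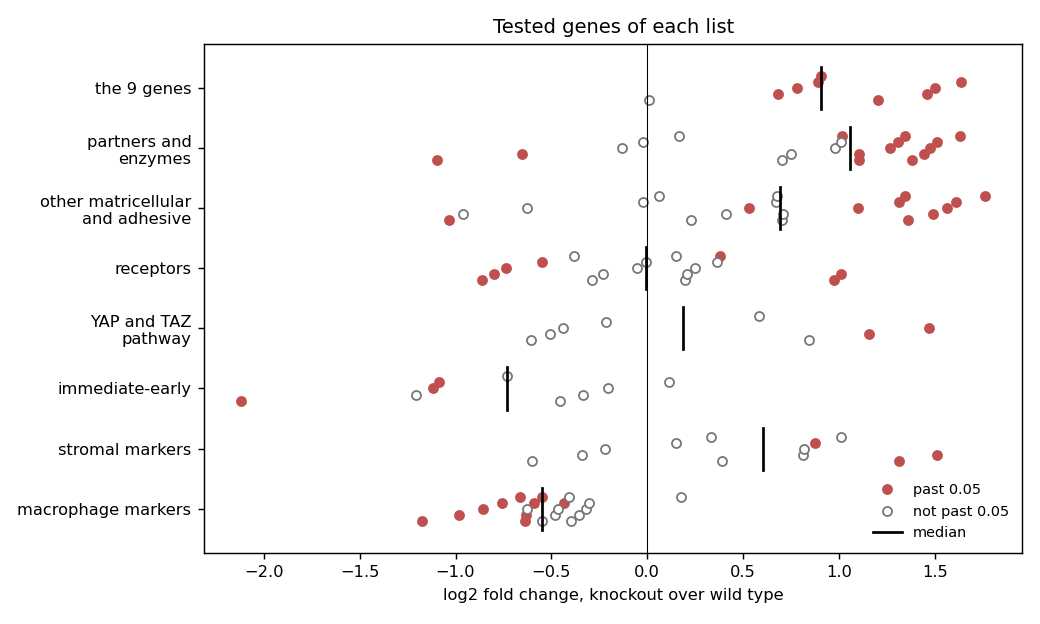
log2 fold change, knockout over wild type (horizontal axis), of each tested gene in 8 lists (rows), red where the adjusted p was under 0.05, with the median as a black bar. The medians were 0.91 for the 9 genes, 1.06 for partners and enzymes, -0.73 for immediate-early genes and -0.55 for macrophage markers.

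Macrophage markers were mostly lower in the knockout libraries. Tested stromal markers went both ways, most of them higher but only 3 of 12 past the test. Of the 20 macrophage markers, 10 passed as lower and 0 as higher in edgeR (13 and 0 at an unadjusted p under 0.05), and DESeq2 passed 5 and 0. Their median was -0.55, and their summed level was 12149 ± 659 CPM (SD, n = 3) in the knockout and 19017 ± 459 (n = 2) in the wild type libraries. Mpeg1, a pore-forming protein of macrophages (-0.98), Lyz2, their lysozyme (-0.67), and Ctss, a lysosomal protease (-0.86), led the list. Without wild type 1, 6 of them passed as lower, and without wild type 2, 5 did. Of the 12 stromal markers that could be tested, 3 passed as higher and 0 as lower in edgeR (5 and 0 at an unadjusted p under 0.05), DESeq2 passed 3 and 0, and the median was 0.60. The 3 were Col1a2, the chemokine Cxcl12 (1.31) and Col6a3, a microfibril collagen (0.88, and 1.01 and 0.75, not past the test, without wild type 1 and 2, and lost in 4 of 14 settings). Vim, the intermediate filament of mesenchymal cells, was at 0.33 (adjusted p = 0.0728) and not past the test. None of the remaining tested stromal markers passed. Pdpn (-0.60), Pdgfra (-0.34) and Ly6a (-0.22) were lower, and Dcn (1.01), Vcam1 (0.82), Fap (0.81), Prrx1 (0.39) and Pdgfrb (0.15) were higher. Thy1, a surface marker of such cells, had 2 counts in the knockout and 3 in the wild type libraries.

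The 9 genes summed to 1.59 to 1.70 times the stromal markers in the knockout and 1.50 and 1.74 times in the wild type libraries, ranges that overlap. Col1a2 alone gave 47.6% to 51.1% of the stromal sum in the knockout and 32.7% to 33.5% in the wild type libraries. With Col1a2 left out of that sum the ratios were 3.06 to 3.48 and 2.23 to 2.61, which do not overlap. Thbs1 alone stood at 0.203 to 0.238 times the stromal sum in the knockout and 0.383 to 0.466 in the wild type libraries, and at 0.0887 to 0.104 and 0.0593 to 0.0665 times the macrophage sum. The part of cell composition in the change of any of the 9 genes was not tested.

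Markers of the other cells that marrow can hold summed to far less than those of macrophages. The 10 endothelial markers summed to 203 ± 20.6 CPM (SD, n = 3) in the knockout and 206 ± 20.8 (n = 2) in the wild type libraries. Pecam1 (-0.37) and Emcn (0.01, a sign that turned between settings) were the 2 tested, neither passed, and Vwf was at 0 in every library. Of the 10 neutrophil markers, 6 were at 0 in every library, and Mmp8, the 1 tested, was at -1.12 (adjusted p = 0.145). Of the 8 osteoclast markers, 3 were at 0 and 3 tested, and they summed to 493 ± 45.0 against 876 ± 43.6 CPM. Acp5, an acid phosphatase also found in macrophages, fell by 1.35 on the log2 scale and did not pass without wild type 1 (-0.89), Mmp9 fell, and Ctsk was at -0.61 and not past the test. Platelets carry thrombospondin-1, and of the 8 megakaryocyte and platelet markers 3 were at 0 and 2 tested. They summed to 323 ± 34.6 against 523 ± 17.9 CPM, led by Pf4, a platelet chemokine also made by macrophages, which fell by 0.66. That fall did not pass when knockout 2 (-0.63), wild type 1 (-0.62) or wild type 2 (-0.72) was dropped, nor in DESeq2. Gp1ba, a platelet receptor subunit, was at -0.44 and not past the test, and Itga2b was at 0. The part of these cells in the Thbs1 level was not tested.

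Across 14 alternative settings of scaling, filter, test, unit and libraries, the log2 fold changes of Thbs2, Sparc, Fn1 and Aebp1 stayed past the test in every one. The ranges were 1.38 to 1.54 for Thbs2, 1.40 to 1.59 for Sparc, 0.78 to 0.97 for Fn1 and 1.42 to 1.84 for Aebp1. The calls of Postn, Ctgf, Cyr61 and Tnc were each lost in 2 to 4 of the 14, with the direction kept. Thbs1 passed in none, with adjusted p from 0.754 to 0.999. With 1 wild type library left, 5 of the 9 passed without wild type 1 and 4 without wild type 2.

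**Figure D5:**
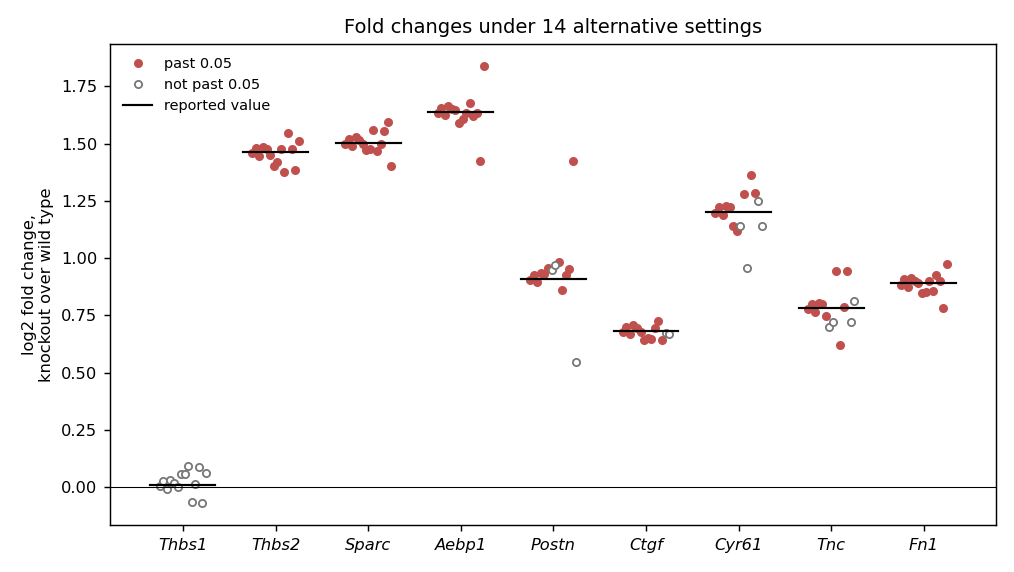
log2 fold change of each of the 9 genes, knockout over wild type (vertical axis), under 14 alternative settings (points, red where the adjusted p was under 0.05 and open where it was not) beside the reported value (black bar). Thbs1 stays between -0.070 and 0.091, and the widest range is that of Postn, from 0.54 to 1.42.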

How the data were processed

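Illumina RNA-seq gave 5 libraries, 3 knockout and 2 wild type, per the labels' titles. Each deposited table holds expected counts (the authors' estimates, which need not be whole), FPKM values and a length in bases for every listed gene, per the file headers. The submitters' processing notes name HISAT2, StringTie, Bowtie2, RSEM and mm10 without roles or versions. An absent gene counted as 0. Of the listed counts, 93.8% to 94.2% were whole within 0.005, and those of the 9 genes were whole in every library. Rows without a gene name held 0% of the counts.

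Rounded counts were tested with edgeR 4.0.16 in R 4.3.3: filterByExpr (minimum count 10, minimum total 15), then TMM and a robust quasi-likelihood fit of genotype on all 5 libraries, with p-values adjusted by Benjamini-Hochberg over 3710 genes (threshold 0.05). The test was checked on simulated data with the same spread for every gene and changes set only in well-counted genes. That check does not cover counts as low as those of Cyr61. SEs came from the quasi-likelihood F. Ratios of FPKM were compared by enumerating all 10 arrangements of the libraries. Count intervals are exact (95%), and these and the limit of 3 counts for a count of 0 cover counting error only. Opposite exons are from GENCODE M21. DESeq2 1.42.0 and limma 3.58.1 served for alternatives.

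The genes and the 11 lists were chosen with earlier results of these data known. Named are the 9 genes, up to 3 per direction of each list with separate groups by adjusted p (2 genes by p if no gene passed), the 3 highest tested members of each marker list, and the 5 genes most like Thbs1 and Thbs2, of which 1 is not reported here. Itgb2, Thbs3, Thbs4, Comp, Yap1, Wwtr1, Tead1, Thy1, Vwf and Itga2b were named after their values were seen. So were Pdpn, Pdgfra, Ly6a, Dcn, Vcam1, Fap, Prrx1 and Pdgfrb.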

Additional observations from a re-analysis of the deposited data

How the results depend on the processing

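Of the 9 genes, 8 passed with RLE, unscaled totals, upper quartile scaling, no filter, DESeq2 and voom. With log2(FPKM + 1) 6 passed and with log2(FPKM + 0.1) 5, and with each library left out 4 to 8. Over the 8 genes that rose, 99 of 112 results kept their call, 13 lost it and none turned; the cause was not tested. Thbs1 turned to -0.0083 with upper quartile scaling, to -0.00027 with voom, and to -0.067 without knockout 1 and -0.070 without wild type 1, never past the test, and stood at up to 0.089 with a library left out. Emcn, also not past the test, turned to -0.0079 with upper quartile scaling, -0.0050 with voom, -0.025 with log2(FPKM + 1), -0.027 with log2(FPKM + 0.1), -0.026 without knockout 1 and -0.10 without wild type 1, up to 0.088 without wild type 2. Of all tested genes 606 were called, 304 higher and 302 lower. DESeq2 called 306 (172 and 134), log2(FPKM + 1) 351 (177 and 174) and log2(FPKM + 0.1) 320 (159 and 161). With each library left out 298 to 610 were called, 144 to 323 higher and 146 to 287 lower, and where 1 wild type library remained it was assumed to vary like the knockout libraries. The alternatives for list genes were chosen after seeing the data. Of the 28 list genes named as called, 18 lost the call without some library, 16 in some other setting, and 10 in none.

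The replicate number as a block called 441 genes and 8 of the 9, with Thbs1 at 0.09 and Thbs1 minus Thbs2 at -1.26 in pairs 1 and 2, since knockout 3 then has no partner. Deviations of same-numbered libraries correlated at -0.01 and 0.03. In libraries this shallow, counting noise can hold such values near 0, so whether the numbers pair libraries is not known. Cyr61 and Postn had the fewest wild type counts of the 9, 29 and 59, so counting error was largest for them.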
